A study of Mus musculus with 3 samples.

Results

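Blood vessels of the developing external genitalia were followed through 40 endothelial and vascular genes, chosen by name as genes known from endothelium and not by their values here. Every probe set annotated to exactly 1 of these gene symbols was taken, which gave 73 of the 45037 probe sets that are not controls, and 40 of the 18193 genes measured. The samples came from 3 embryos at embryonic day 14 (Theiler stage 22), all with the label male, each dissected for its genital tubercle, the outgrowth that forms the penis or clitoris, and each hybridised to 1 array. The mothers were FVB/N mice mated to males transgenic for SMAA/EYFP, a yellow fluorescent reporter named for smooth muscle actin that guided the dissection. All samples share this cross, and no wild-type sample enters the comparison. The samples were not pooled, and they differ in 1 label, the developmental landmark. Replicate 3 had fingers already visible, while replicates 1 and 2 were at the stage of indented footplate borders.

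Endothelial cells line all vessels and are kept alive and guided by a small set of ligand and receptor systems. Vascular endothelial growth factors act through Kdr, Flt1 and Flt4, angiopoietins through the receptor Tek with its partner Tie1, and apelin through Aplnr, while transcription factors of the Ets family hold many endothelial genes on. Arteries, veins and lymphatics then separate, with Notch ligands such as Dll4 on the arterial side and Prox1, Lyve1 and Flt4 on the lymphatic side. In bulk tissue such as this, fewer endothelial cells and less RNA per cell cannot be told apart.

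The array values are linear signals scaled by the submitters, with background set in each sample by probe sets of olfactory, vomeronasal and taste receptors at 197.3, 134.8 and 251.3 signal units in replicates 3, 1 and 2. The labelled sex and the purity of the dissection were checked first. The X-inactivation RNA Xist read 61883 in replicate 3, against 8.05 and 118 in replicates 1 and 2, and the Y-linked gene Eif2s3y read 37.9 in replicate 3, against 4384 and 3738, so the male label of replicate 3 goes against the data. Hepatocyte markers summed to 9665 signal units in replicate 3, against 118632 and 53206 in replicates 1 and 2, and skeletal muscle markers to 3464, against 28634 and 8712. The 10 markers of tubercle mesenchyme and epithelium, Hoxd13, Isl1 and Shh among them, were above background in every sample and summed to 196845, against 206367 and 219104. The ratio of 3′ to 5′ signal of the β-actin control probe sets, which grows as RNA is shortened, was 4.42 in replicate 3, against 7.38 and 2.21 in replicates 1 and 2. The same ratio of the Gapdh control was 14.1 in replicate 3, against 21.5 and 14.9, so both controls were highest in replicate 1 but put replicates 3 and 2 in opposite order.

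Most of the vascular genes were above background. Of the 40, 30 (75%) were above background in 3 of 3 samples, which was so for 60.6% of the 18193 genes. By probe set, 48 of 73 were, against 48.1% of all probe sets. Without replicate 3, whose sex label is doubtful, 30 were above background in both remaining samples, against 62.3% of all genes. On their brightest probe sets the remaining 10 comprised 3 above background in 2 samples (Dll4, Nos3 and Acvrl1, which has another probe set above background in every sample), 4 in replicate 1 alone (Tie1, Vwf, Pecam1 and Lyve1) and 3 in no sample (Prox1, Gja5 and Rasip1), where 26.6% of all genes passed nowhere. Replicate 1 has the lowest background, and 33 members passed in replicate 3, against 37 and 30 in replicates 1 and 2. Counted as probe sets and not as genes, 25256 of all 45037 passed in replicate 3, against 25843 and 24869. These member counts are therefore not read as a trait of the members. By role, 10 of 12 receptors, 9 of 11 ligands and secreted proteins, 4 of 5 transcription factors and 7 of 12 surface, junction and cell biology genes were above background in 3 of 3 samples. Probe sets differ in how well they bind, so signals are compared between samples for 1 gene and not between genes.

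**Figure D1:**
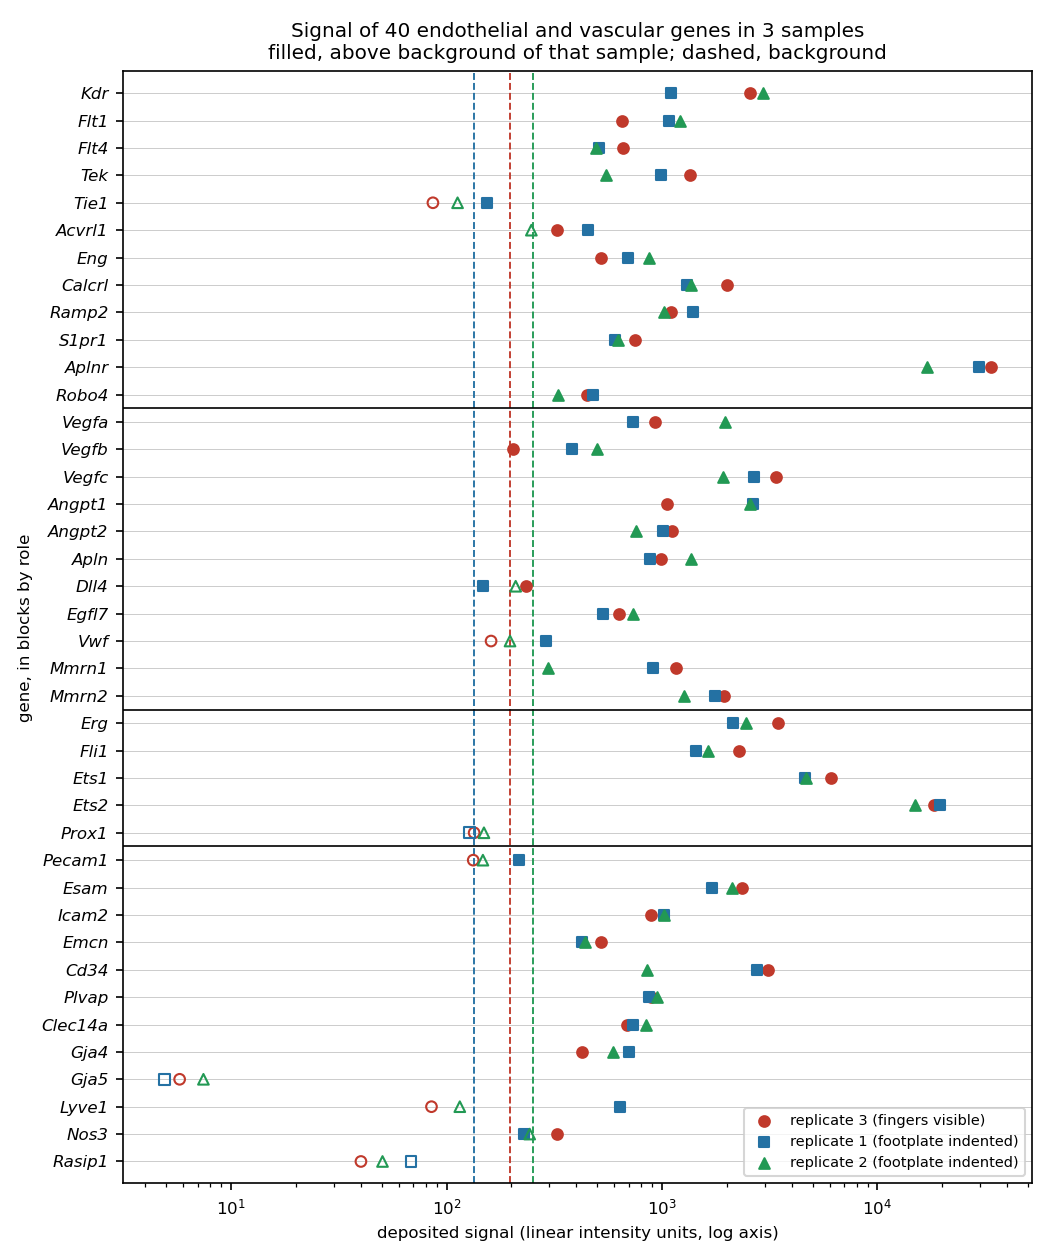
Deposited signal (linear units on a log axis) of the probe set with the highest mean signal for each of the 40 genes, in blocks by role from receptors at the top through ligands and transcription factors to surface and junction genes. Filled symbols lie above the background of their own sample (dashed lines at 197.3, 134.8 and 251.3 for replicates 3, 1 and 2), and 30 genes are filled in all 3 samples.

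The 7 members that stood over 2-fold below both other samples in 1 sample carry the differences described below, and the bases just before the start of the gene are shown for those 5 of them that a RefSeq promoter table of the assembly GRCm38.p6 holds. The table matched 24 of the 40 members. Each line gives the 250 bases before the annotated start, 5′ to 3′ on the strand of the gene. Capitals mark AGGAAG or CGGAAG on either strand, forms of the core that Ets factors bind, which do not overlap each other within these windows.
Cd34, chr1:194938571-194938820, plus strand: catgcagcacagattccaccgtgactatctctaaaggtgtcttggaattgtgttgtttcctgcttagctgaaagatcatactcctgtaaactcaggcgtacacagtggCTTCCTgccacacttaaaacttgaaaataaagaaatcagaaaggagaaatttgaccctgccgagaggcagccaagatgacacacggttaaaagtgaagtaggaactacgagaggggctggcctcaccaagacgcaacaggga
Mmrn1, chr6:60944067-60944316, plus strand: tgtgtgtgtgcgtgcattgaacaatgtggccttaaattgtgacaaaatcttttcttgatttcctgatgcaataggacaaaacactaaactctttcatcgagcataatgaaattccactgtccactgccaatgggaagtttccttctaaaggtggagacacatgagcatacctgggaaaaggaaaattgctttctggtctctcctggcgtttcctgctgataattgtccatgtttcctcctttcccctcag
Tek, chr4:94739039-94739288, plus strand: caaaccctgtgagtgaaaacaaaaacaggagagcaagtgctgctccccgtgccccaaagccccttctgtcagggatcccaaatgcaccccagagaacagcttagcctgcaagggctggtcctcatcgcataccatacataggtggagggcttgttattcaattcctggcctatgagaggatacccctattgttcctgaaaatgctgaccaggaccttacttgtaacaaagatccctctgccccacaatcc
Vegfb, chr19:6987652-6987901, minus strand: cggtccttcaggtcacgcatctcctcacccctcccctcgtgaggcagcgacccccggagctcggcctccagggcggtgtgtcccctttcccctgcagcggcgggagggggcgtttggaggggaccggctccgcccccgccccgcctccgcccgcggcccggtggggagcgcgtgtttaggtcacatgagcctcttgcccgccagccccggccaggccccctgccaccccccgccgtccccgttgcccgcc
Kdr, chr5:75978456-75978705, minus strand: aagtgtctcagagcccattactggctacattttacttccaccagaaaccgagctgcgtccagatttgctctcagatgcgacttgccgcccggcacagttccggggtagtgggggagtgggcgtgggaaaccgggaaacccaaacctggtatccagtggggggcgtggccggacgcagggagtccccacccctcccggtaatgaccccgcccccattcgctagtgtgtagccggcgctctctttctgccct
Cd34 held 1 AGGAAG, on the minus strand, beginning 142 bases before the start, and the other four windows held neither form. Over the 30 promoters of the members in the table, 43.3% had at least 1 of the 2 forms, against 39.2% of 32817 promoters of the same length. CGGAAG alone was in 3.33% of the members' promoters, against 13.6% of all, and AGGAAG in 43.3%, against 29.5%. These are matches of letters and not measured binding.

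The receptors of vascular endothelial growth factor were all above background. Kdr, the main signalling receptor of endothelium, read 2569 in replicate 3, against 1099.5 and 2947 in replicates 1 and 2. Replicate 1 was the low sample, 2.20-fold below replicate 3 and 2.29-fold below replicate 2 after the samples were aligned on their medians. Flt1, which binds the same ligand tightly and signals weakly, was lowest in replicate 3, at 654, against 1076 and 1216. Flt4, the receptor of Vegfc that lymphatic endothelium keeps, was close in all samples, at 660.3 in replicate 3, against 507 and 494 (SD 0.28 on the log2 scale, n = 3).

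Tek, the receptor of the angiopoietins, read 1345 in replicate 3, against 991 and 549.5. Replicate 2 was low, 2.69-fold below replicate 3 and 2.11-fold below replicate 1. Its partner Tie1 read 86.4 in replicate 3, against 154 and 112, above background in replicate 1 alone, and no fold is given because that reading lies under the background of both other samples. Ptprb, a vascular phosphatase that acts on Tek, belongs to the list of other endothelial genes and was picked out after its values were seen. It read 1630.2 in replicate 3, against 1208 and 275, and was 6.53-fold and 5.15-fold lower in replicate 2 than in replicates 3 and 1.

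Aplnr, the apelin receptor found on venous and sprouting endothelium and on some mesenchyme, read 33523 in replicate 3, against 29685 and 17005. Replicate 2 was again the low sample, by 2.17-fold and 2.04-fold. The second Aplnr probe set had the same order, at 2492 in replicate 3, against 1899 and 1028. Its ligand Apln, a product of endothelial tip cells, read 985 in replicate 3, against 877 and 1357, highest in replicate 2.

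The adrenomedullin receptor is made of Calcrl and Ramp2, and Calcrl read 2008 in replicate 3, against 1303 and 1366. Ramp2 read 1103, against 1389.9 and 1023, from the 1 probe set that names it alone. A further 2 probe sets shared between Ramp2 and Vps25 were left out. S1pr1, the sphingosine 1-phosphate receptor that stabilises new vessels, read 753, against 603 and 622. Robo4, a guidance receptor of endothelium, read 449.6, against 477 and 327. On the brightest probe sets of these 4 genes the samples lay within 2-fold of each other. A second Calcrl probe set read 377 in replicate 3, against 134, not above background, and 339. On it replicate 1 was at least 2.63-fold below replicate 3 and at least 2.15-fold below replicate 2. Of the pair that binds bone morphogenetic proteins on endothelium, the co-receptor Eng read 520.2 in replicate 3, against 695 and 871. Its second probe set did not put replicate 3 lowest, at 591, against 558 and 530.3. The kinase receptor Acvrl1 read 324, against 451 in replicate 1 and 247, not above background, in replicate 2. On this probe set replicate 2 was at least 2.10-fold below replicate 1. The second Acvrl1 probe set was above background in all samples and highest in replicate 2, at 208 in replicate 3, against 214 and 286.

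Among the ligands, Vegfa, the growth factor that Kdr answers to, read 925 in replicate 3, against 737 and 1952. Replicate 2 was the high sample, 2.26-fold above replicate 1 and 1.92-fold above replicate 3, and the second Vegfa probe set had its highest reading there too (816 in replicate 3, against 681 and 1074). Vegfb, a ligand of Flt1, was lowest in replicate 3, at 203, against 381 and 502. That reading lay just above the background of 197.3, and it was 2.00-fold and 2.25-fold below replicates 1 and 2. Vegfc, the lymphatic growth factor, had 3372 in replicate 3, against 2678 and 1917, and each of its 3 probe sets was highest in replicate 3 and lowest in replicate 2.

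The angiopoietins differed in their pattern. Angpt1, made by mesenchyme around vessels and the activating ligand of Tek, read 1052 in replicate 3, against 2649.9 and 2567. Replicate 3 was 2.68-fold below replicate 1 and 2.22-fold below replicate 2. A second Angpt1 probe set did not show this order, at 329 in replicate 3, against 124, not above background, and 322. Angpt2, made by sprouting endothelium, read 1118, against 1006 and 755, with all samples within 2-fold.

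Of the other secreted and matrix proteins, Mmrn1, which is shared by lymphatic endothelium and platelets, had the largest spread of the 30 genes above background in 3 of 3 samples. It read 1159.6 in replicate 3, against 912 and 295. Replicate 2 was 4.33-fold below replicate 3 and 3.62-fold below replicate 1. Its SD of 1.15 on the log2 scale was reached or passed by 1.04% of 11020 genes above background in 3 of 3 samples. These values rest on the reading of 295 in replicate 2, near the background of 251.3 there. It lay under 338.9, the background of that sample when set at the 99th percentile. The second Mmrn1 probe set was above background in no sample. The related endothelial matrix gene Mmrn2 read 1945 in replicate 3, against 1754 and 1264, within 2-fold. Dimmer Mmrn2 probe sets above background in every sample gave other orders. On one replicate 3 was lowest, at 725, against 866 and 1047, and on another replicate 1 was lowest, with 954 in replicate 3, against 476 and 726. Egfl7, which endothelium secretes into its matrix, read 628, against 532 and 735. An Egfl7 probe set nearly as bright put replicate 3 lowest, at 461, against 681 and 672. Vwf, the clotting factor stored in endothelium and platelets, read 161 in replicate 3, against 289 and 197, above background in replicate 1 alone. The arterial Notch ligand Dll4 read 234 in replicate 3 and 148 in replicate 1, both above background, and 209 in replicate 2, which was not.

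Of the Ets factors, Erg, which keeps endothelial identity, read 3458 in replicate 3, against 2143 and 2447. Its close relative Fli1, active in endothelium and blood, followed the same order with 2281, against 1435 and 1643. Replicate 3 was the highest sample for both, by 1.52-fold and 1.49-fold over replicate 1. Ets1 read 6081, against 4615 and 4641. Ets2, which many cell types express, read 18304, against 19530.2 and 14936. On these brightest probe sets the SD of the 4 genes on the log2 scale lay between 0.27 and 0.36 (n = 3), against a median of 0.33 over the 11020 genes above background in 3 of 3 samples. Dimmer probe sets that were also above background in every sample varied more for Fli1 (SD 1.10) and Ets1 (0.53 and 0.82). The dimmer one of Ets2 varied less than its brightest, with an SD of 0.22, against 0.32. Prox1, the factor that sets lymphatic fate, was not above background on any of its 3 probe sets, with 134 in replicate 3, against 128 and 149 on the brightest.

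Of the surface proteins, Cd34, a sialomucin of endothelium and blood progenitors, read 3093 in replicate 3, against 2773 and 852. Replicate 2 was 3.996-fold below replicate 3 and 3.81-fold below replicate 1. The SD of 1.13 was reached or passed by 1.13% of genes. Pecam1, a junction protein used as a general endothelial marker, read 133 in replicate 3, against 217 and 147, above background in replicate 1 alone. Other genes that define endothelium were above background in every sample, as the junction cadherin Cdh5 read 1692 in replicate 3, against 2912 and 1553, and the tight junction gene Cldn5 read 1127, against 1274 and 975.

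Several surface genes varied by less than 2-fold. Plvap, which forms the diaphragms of endothelial pores, read 890.3 in replicate 3, against 869 and 948. Its SD of 0.05 was the smallest of the 30 genes, and 98.2% of all genes varied as much or more. Clec14a read 689.6, against 729.8 and 847, and the adhesion molecule Icam2 888, against 1027 and 1016. The junction protein Esam read 2361, against 1699.9 and 2114. Emcn, a sialomucin of veins and capillaries, read 523, against 424 and 441.

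Of the arterial connexins, Gja4 read 424 in replicate 3, against 706 and 595, whereas Gja5 was far below background everywhere, at 5.77, against 4.91 and 7.44. Nos3, the endothelial nitric oxide synthase, read 326 in replicate 3 and 229.7 in replicate 1, both above background, and 243 in replicate 2, which was not. Rasip1, needed for vessel lumens, read 40, against 68.3 and 50.4, and was above background nowhere. Lyve1, the hyaluronan receptor of lymphatic endothelium, liver sinusoids and some macrophages, read 85.1 in replicate 3, against 640.0 and 115, above background in replicate 1 alone. Replicate 3 was at least 3.45-fold and replicate 2 at least 2.98-fold below replicate 1. The second Lyve1 probe set was below background in every sample, at 113 in replicate 3, against 64.4 and 176. Replicate 1 was also highest for the summed hepatocyte markers, given above, and for those of macrophages and leukocytes, which came to 6258 in replicate 3, against 8792 and 5714. Of these 12 macrophage and leukocyte genes 7 were above background in replicate 3, against 10 and 6, with Aif1 and Fcer1g in none. Their part in the Lyve1 reading was not tested.

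**Figure D2:**
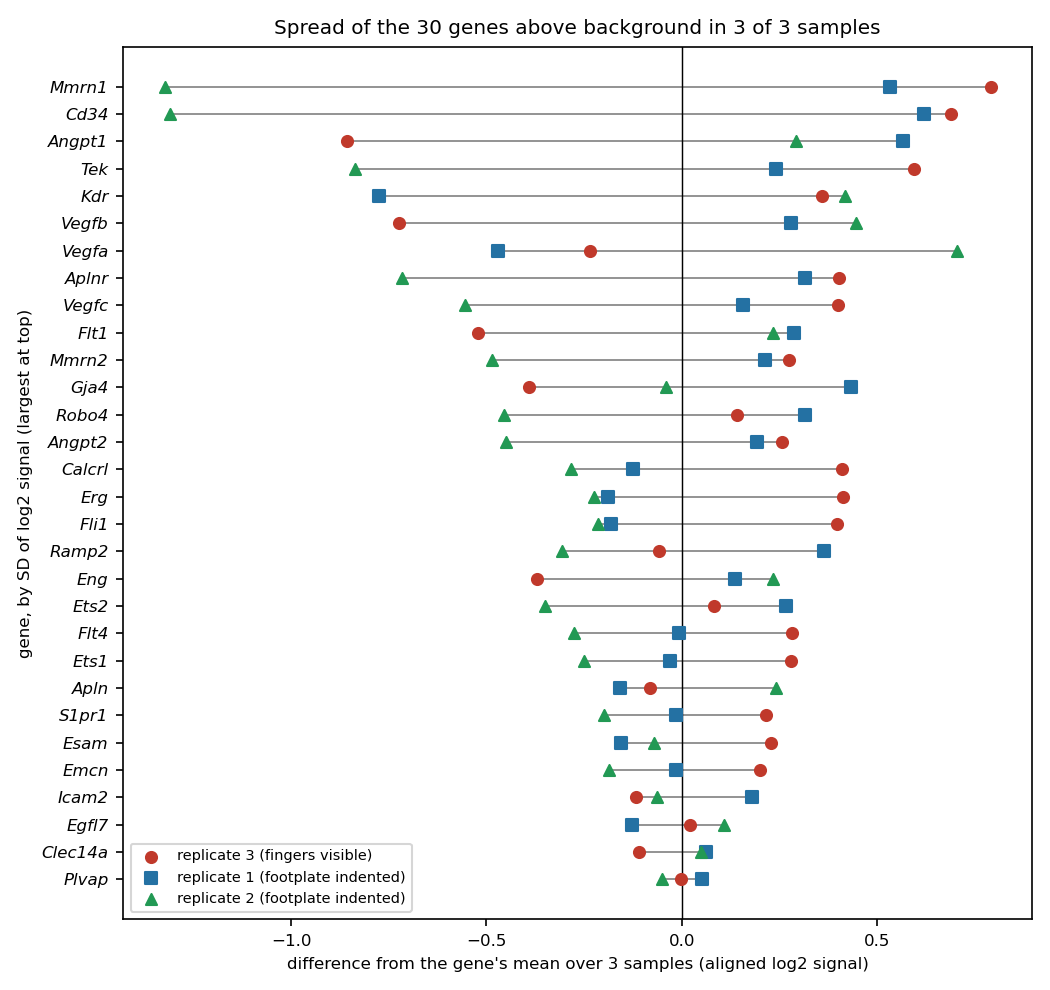
Difference of each sample from the mean of the gene (aligned log2 signal) for the 30 genes above background in 3 of 3 samples, ordered by SD from Plvap at the bottom to Mmrn1 at the top. Replicate 2 is far to the left for Mmrn1, Cd34, Tek and Aplnr, replicate 3 for Angpt1 and Vegfb, and replicate 1 for Kdr.

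The samples were then set against each other over all 40 genes, counting those that differed by 2-fold or more where at least 1 of the 2 samples was above background. With 1 sample on each side there is no replicate check. Between replicates 3 and 1, 1 of 37 members (2.7%) was higher in replicate 3, namely Kdr, as were 3.57% of all genes. Lower there were 3 of 37 (8.11%), Angpt1, Vegfb and Lyve1, and 5.56% of all genes. Between replicates 3 and 2, 4 of 33 (12.1%) were higher in replicate 3, Tek, Aplnr, Mmrn1 and Cd34, against 4.66% of all genes, and 2 of 33 (6.06%) were lower, Angpt1 and Vegfb, against 3.14%. Between replicates 2 and 1, 2 of 37 (5.41%) were higher in replicate 2, Kdr and Vegfa, against 4.41% of all genes, and 6 of 37 (16.2%) lower, Tek, Acvrl1, Aplnr, Mmrn1, Cd34 and Lyve1, against 8.7%. Acvrl1 counts here by its brightest probe set alone. Without aligning the samples the same 2 were higher, against 6.99% of all genes, and 3 lower (Mmrn1, Cd34 and Lyve1), against 4.42%.

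Counting only genes above background in 3 of 3 samples, 4 of 30 members (Tek, Aplnr, Mmrn1 and Cd34) lay over 2-fold below both other samples in replicate 2, as did 2.24% of all genes. In replicate 3, 2 members (Angpt1 and Vegfb) and 0.98% of all genes did so. In replicate 1, 1 member (Kdr) and 1.42% of all genes did so. Without alignment the count was 2 in replicate 2 (Mmrn1 and Cd34), against 0.998% of all genes. It was then 1 in replicate 3 (Angpt1), against 1.19%, and 1 in replicate 1 (Kdr), against 2.09%. No member lay over 2-fold above both other samples, where 0.599%, 1.58% and 0.907% of all genes did in replicates 3, 1 and 2. The 4 genes low in replicate 2 include 2 that platelets or blood progenitors also express, Mmrn1 and Cd34. Megakaryocyte and platelet markers summed to 4005 in replicate 3, against 12204 and 3432 in replicates 1 and 2, with 7 of 10 above background in replicate 3, against 9 and 5, and Gp9 in none. Of the 10, 5 were above background in 3 of 3 samples, against 60.6% of all genes. The 4 brightest, Ppbp, Pf4, Itga2b and Nfe2, carried 69.6% of the sum in replicate 3, against 87.7% and 70.2%. The platelet chemokine Ppbp read 1035, against 5982 and 646. Treml1 was highest in replicate 3, at 451, against 154 and 41.5, and Gp1bb in replicate 2, with 261 in replicate 3, against 213 and 341. The part of megakaryocytes and platelets in the readings of Mmrn1 and Cd34 was not tested. The 3′ to 5′ ratio was highest in replicate 1 for both β-actin (7.38) and Gapdh (21.5), and its part in the low Kdr reading of replicate 1, which rests on 1 probe set, was not tested.

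**Figure D3:**
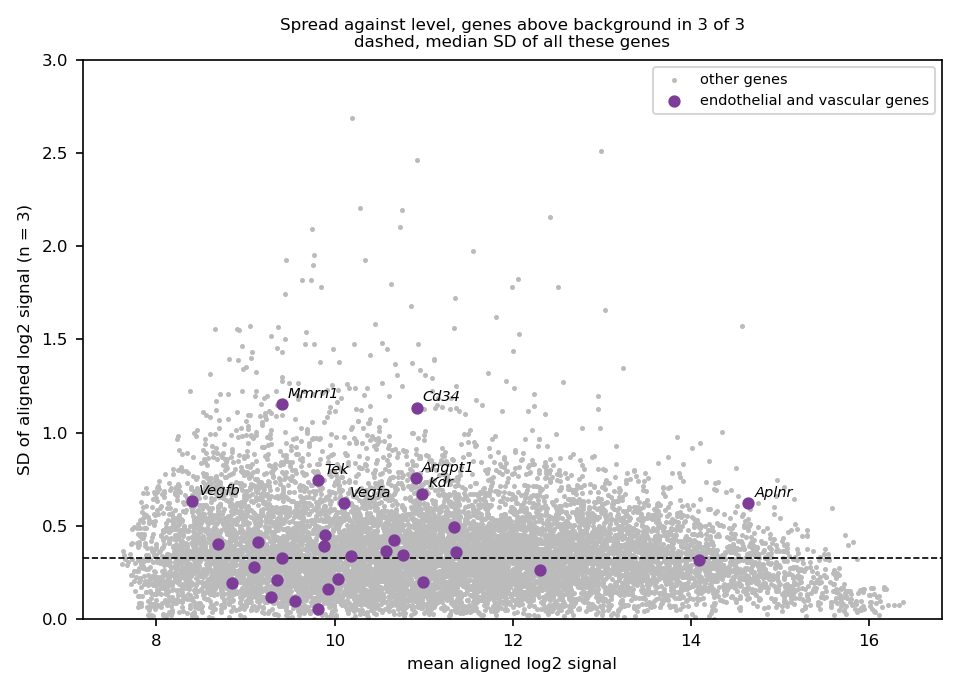
SD of the aligned log2 signal over 3 samples against its mean for the 11020 genes above background in 3 of 3 samples, with the 30 endothelial and vascular genes marked and those with an SD over 0.6 named. Mmrn1 (1.15) and Cd34 (1.13) stand highest of the marked genes, and the dashed line is the median of all genes at 0.33.

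As a group the 30 genes had a median SD of 0.36 on the log2 scale, against 0.33 over all 11020 genes, and 18 of 30 exceeded that median. Within the group, 15 of 30 (50%) had their highest aligned value in replicate 3, against 25.3% of all genes. Replicate 1 was highest for 9 of 30, against 55.6% of all genes, and replicate 2 was lowest for 18 of 30 (60%), against 51.4%. Aligned on the median of every probe set instead, 6 of 30 members were highest in replicate 3, against 12.5% of all genes.

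Different probe sets of a gene did not always give the same order. Of the 40 genes, 19 had 1 probe set and 21 had several, and for 11 of these at least 2 probe sets were above background in 3 of 3 samples. All such probe sets put replicate 3 on the same side of the mean of replicates 1 and 2 for 5 of the 11 genes, which were Flt4, Aplnr, Vegfa, Vegfc and Fli1. Fli1 still changed order, since its second probe set read 502 in replicate 3, against 176 and 929, highest in replicate 2. The 2 dimmest Ets1 probe sets were likewise lowest in replicate 1 and highest in replicate 2. The brighter of them read 330.2 in replicate 3, against 185 and 674, and the other was not above background in replicate 1. The remaining dimmer Ets1 probe set was highest in replicate 3 and lowest in replicate 2, at 6059, against 3615 and 3231. For Flt1 the 4 probe sets were split, and 1 read 269 in replicate 3, against 154 and 286. Replicate 1 was thus lowest on the second Fli1, the 2 dimmest Ets1 and this Flt1 probe set. It was highest on another Flt1 probe set, at 740 in replicate 3, against 1072 and 621. The same held for an Egfl7 probe set, at 461 in replicate 3, against 681 and 672. Replicate 1 also had the highest 3′ to 5′ ratios (7.38 for β-actin), and their part in these orders was not tested. Where each probe set lies on its transcript was not analysed here.

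The landmark was compared last, with replicate 3 against the mean of replicates 1 and 2. The contrast sets 1 sample against 2 and carries the doubtful sex label of replicate 3 with it, so the landmark and sex cannot be told apart. Replicate 3 also had the lowest hepatocyte sum (9665, against 118632 and 53206) and the lowest skeletal muscle sum (3464, against 28634 and 8712), and the part of tissue carried along in the dissection was not tested. The members with the most positive log2 differences were Mmrn1 (1.19 ± 1.00, SE from limma), Cd34 (1.03 ± 1.03), Tek (0.89 ± 0.76), Erg (0.62 ± 0.60) and Calcrl (0.61 ± 0.60). Among members above background in 3 of 3 samples the most negative were Angpt1 (-1.29 ± 0.61), Vegfb (-1.09 ± 0.60), Flt1 (-0.78 ± 0.60), Gja4 (-0.59 ± 0.63) and Eng (-0.56 ± 0.60). Averaged over the probe sets above background, the value was -0.26 for Flt1 and -0.21 for Eng. Lyve1 (-1.65 ± 1.32) was above background in replicate 1 alone, so its value rests on that sample, and it was -0.30 without replicate 1 and -3.00 without replicate 2. For Mmrn1, Cd34 and Tek replicate 2 lay apart and replicates 3 and 1 were within 1.28-fold, while for Angpt1, Vegfb, Flt1, Erg and Calcrl replicates 1 and 2 lay close together and replicate 3 apart on the brightest probe set.

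Of the 37 members above background in at least 1 sample, 17 (45.9%) read higher in replicate 3 than in both others, against 26.1% of all 13347 such genes, and 11 (29.7%) lower than both, against 31.6%. Of those 11, 4 (Tie1, Vwf, Pecam1 and Lyve1) were not above background in replicates 3 and 2, so their order between these samples carries no information. Of the 30 members above background in 3 of 3 samples, 7 (23.3%) were lowest in replicate 3, against 30.5% of all genes. With the alignment on the median of every probe set the first count became 8, against 14.4% of all genes. The median log2 difference over the 37 members was 0.21, against -0.01 over all genes, and over the 30 members above background in 3 of 3 samples it was 0.31, also against -0.01. Over the 37 members it was 0.30 against replicate 2 alone and 0.07 against replicate 1 alone, where all genes had 0.12 and -0.19. By limma with Benjamini-Hochberg adjustment 0 of 37 members were called (adjusted p = 1 for each). The same fit called 0 of 29121 probe sets (0.0%), with 611 (2.1%) at an unadjusted p under 0.05, none of them the main probe set of a member, for which the smallest was 0.104 (Angpt1). With 1 residual degree of freedom, only replicates 1 and 2 inform the spread of a probe set, and replicate 3 is taken to vary alike. limma also draws each spread towards a value shared by all probe sets fitted. An SE near 0.60 therefore mostly carries that shared value, as for Erg, where replicates 1 and 2 lay within 1.03-fold.

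Further endothelial genes outside the 40 were mostly above background. Of 33 measured, 30 were above background in 3 of 3 samples, against 60.6% of all genes. Their signals summed to 99860 in replicate 3, with 103077 and 86649 in replicates 1 and 2. The 4 brightest, S1pr3, Cav1, Nrp1 and Nrp2, carried 68.8% of that sum in replicate 3, against 61.1% and 65.5%. Without them it was 31166, against 40125 and 29859. Among the brightest on their own probe sets, the sphingosine receptor S1pr3 read 37098 in replicate 3, against 33462 and 32284. The caveolar gene Cav1 read 11839, against 16351 and 10372. The co-receptor Nrp1, which also serves axons, read 11772, against 5267 and 7440.0, highest in replicate 3. Its relative Nrp2 read 7984, against 7873 and 6694. Beneath the sum single genes differed widely, as Tal1, a factor of blood and early endothelium picked out after its values were seen, read 755, against 4505 and 961. The list had 2 genes above background in no sample, Etv2, which starts the endothelial lineage early in the embryo, and Bmp10.

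Of 12 artery and Notch genes, 11 were above background in 3 of 3 samples, against 60.6% of all genes. The ligand Jag1 read 22999 in replicate 3, against 24903 and 28427, the ephrin Efnb2 18783, against 15986 and 23857, and Hey1, a Notch target, 3304, against 9129.6 and 5009. These genes are also expressed outside vessels. The exception was Cxcr4, above background in replicate 1 alone. Of 13 vein and lymphatic genes on the array, 10 passed background in 3 of 3 samples, against the same 60.6%. Adamts3, the protease that activates Vegfc, read 3218, against 4775 and 2899, and the matrix protein gene Reln 1332, against 2653 and 3166. Hey1 and Reln were lower in replicate 3 than in both others.

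Pericytes and vascular smooth muscle wrap endothelium. Of their genes, 8 of 14 were above background in 3 of 3 samples, against 60.6% of all genes. The platelet-derived growth factor receptor Pdgfrb, which mesenchyme shares, read 10356 in replicate 3, against 11766 and 13001. Notch3 read 5117, against 4740.5 and 3899, and Acta2 2378, against 5273 and 2736. Cspg4 read 980, against 533 and 760, and was lowest in replicate 1. Rgs5, a dimmer gene and a pericyte marker, read 526, against 792 and 519. Acta2 was highest in replicate 1, and the others named so far in this list lay within 2-fold. Not every gene of the list did, as Abcc9 was at least 2.64-fold lower in replicate 2 than in replicate 3. It was picked out after its values were seen. Of the 11 measured genes of hypoxia and endothelial activation, 7 were above background in 3 of 3 samples, against the same 60.6%. Hif1a, the oxygen-sensing factor that turns on Vegfa, read 22415, against 13879 and 14027, and was highest in replicate 3, whereas Vegfa was highest in replicate 2. The selectins Sele and Selp of inflamed endothelium were above background in no sample.

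Erythroid genes, which mark blood inside the vessels, were above background for 8 of 12 measured in 3 of 3 samples, against 60.6% of all genes. The embryonic globin Hbb-y read 77722 in replicate 3, against 59853 and 86889. Markers of maturing red cells differed far more, as Slc4a1 read 1686, against 18738 and 6337. The erythroid sum of 82621 in replicate 3, against 99303 and 102614, is mostly Hbb-y. Replicate 1, with the highest Slc4a1 reading and the highest platelet, liver and muscle sums, was also the sample in which Pecam1, Tie1, Vwf and Lyve1 passed background. The part of the marked cells in those readings was not tested. Replicate 1 also had the lowest background, at 134.8, against 197.3 and 251.3 in replicates 3 and 2. Tie1, at 154 in replicate 1, lay under both of the latter.

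**Figure D4:**
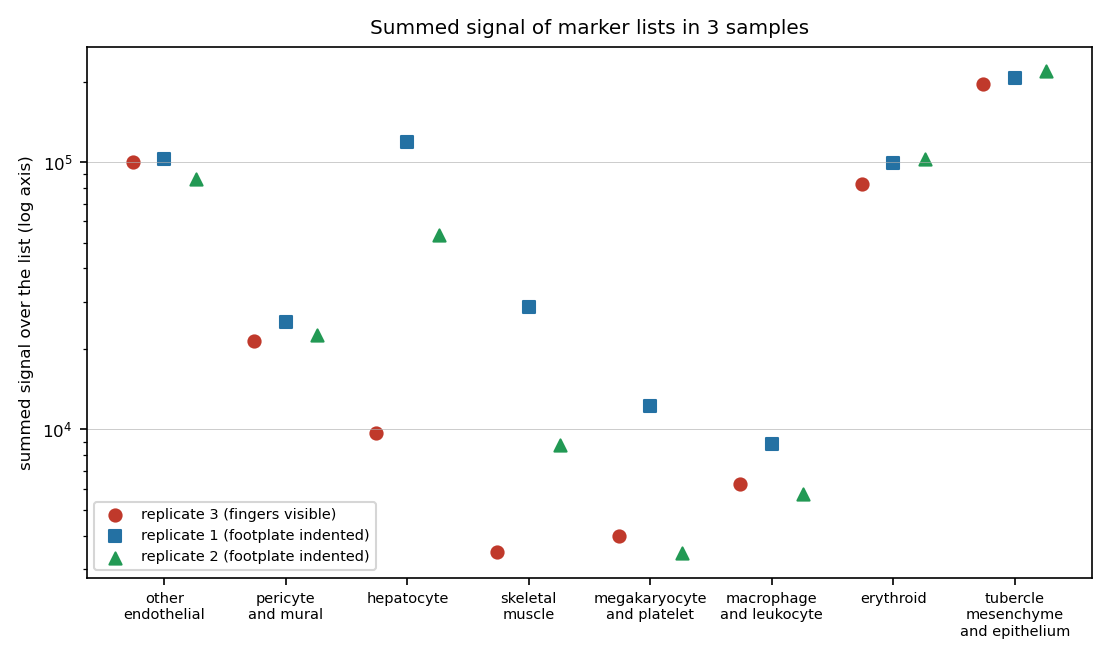
Summed signal (log axis) of the measured genes of 8 marker lists in replicates 3, 1 and 2. Endothelial, mural, erythroid and tubercle sums lie within 2-fold, the endothelial sum resting mostly on 4 genes and the erythroid on Hbb-y, whereas hepatocyte, skeletal muscle and platelet sums are highest in replicate 1 (118632, 28634 and 12204).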

How the data were processed

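The members and gene lists were chosen with earlier results of these data known. Total RNA was extracted with a Qiagen RNeasy kit, amplified in 2 rounds and labelled with biotin, per the labels' protocols. The authors deposited linear intensities, 1 for each probe set in each sample, from GCOS per the submitters' processing notes. For GCOS a version and algorithm were not given in the sources used here; scanner files were not used. The mean after trimming 2% at each end was 1500.0 in every deposited column. Of 45101 probe sets, 64 controls were set aside. A platform annotation gave exactly 1 symbol to 34945 probe sets, several to 932 and none to 9160, and 0 symbols changed when updated through RefSeq (GRCm38.p6). The brightest probe set by mean signal stood for a gene. Background was the 95th percentile of 83 sensory receptor probe sets in each sample. Signals under 1 were set to 1, log2 transformed and aligned on the median of probe sets above background in 3 of 3 samples, since these medians differed by 0.23. Signals are printed as deposited, while folds, differences and SDs are after alignment. A gene not above background in 1 of 2 samples was taken there at the background, or its own signal if higher, and its fold is written as at least that size. limma 3.58.1 (R 4.3.3), two-sided, compared the landmarks over the 29121 probe sets that passed background somewhere, and its script was tested on simulated data. The outcome of that test changed with how the simulated spread was drawn, and the way of drawing it was changed after the first outcome, so neither the rate of false calls nor the power of this 3-sample fit was established. The labels do not say whether the embryos shared a litter or a hybridisation, so the spread may be technical in part. All 40 members are named, and the other lists are given by counts with up to 4 genes each by mean signal, plus markers and genes that a result turns on. The counts of which sample was highest or stood over 2-fold below the others, the shares by SD and the promoters shown were chosen after values were seen. Alternatives were other background percentiles, alignments, floors, probe set choices, filters, a variance trend and leaving out each sample.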

Additional observations from a re-analysis of the deposited data

How the results depend on the processing

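The count of members above background in 3 of 3 samples was 30 and became 27 with background at the 99th percentile, 33 at the 90th, 31 when any probe set could pass and 20 when every probe set had to. Leaving out 1 sample gave 30 to 33. The counts over 2-fold stayed within 1.5 times under the alignments, floor and probe set choices tried, except between replicates 2 and 1, where 8 became 5 with no alignment; aligning on the median of every probe set gave 12. In counts added after the data were seen, members over 2-fold below both other samples fell to 2 in place of 4 in replicate 2 and to 1 in place of 2 in replicate 3 without alignment. Aligned on the median of every probe set they were 0 in place of 1 in replicate 1 and 1 in replicate 3. That alignment, which moves the median of all genes, also gave 6 in place of 15 members highest in replicate 3 and 8 in place of 17 reading higher there than in both others. The median landmark difference over members ranged from 0.07 without replicate 2 to 0.30 without replicate 1, from 0.19 to 0.25 over the other settings planned, and was 0.13 when aligned on the median of every probe set, where all genes had -0.1. Among the landmark fits, limiting the probe sets to those above background in 3 of 3 samples gave 1 call (adjusted p = 0.017 by limma) in place of 0, a probe set of Xist and of no member, named after its value was seen. Leaving out a sample leaves no residual degree of freedom and so gives no call. With no filter, no alignment, quantile normalization, a floor of 16 or a variance trend it was 0. Single members changed the sign of their landmark difference in 5 of 37 cases without replicate 1 (Kdr, Acvrl1, Ramp2, Egfl7 and Plvap), in 4 without replicate 2 (Robo4, Vegfa, Apln and Ets2), in 1 with quantile normalization (Egfl7) and again with alignment on every probe set, and in 2 of 31 when the probe sets above background were averaged (Egfl7 and Ets2). No paired analysis was possible because the samples form 1 group. The number of arrays and the distance of a signal from background limit precision. This holds most of all for Vegfb in replicate 3, Mmrn1 and Robo4 in replicate 2, and the genes above background in fewer than 3 samples.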
